A study of Mus musculus with 88 samples.

Results

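The RNA of the genes that build, load, release and protect cohesin was followed in single mouse oocytes of young and old females. The list held 10 genes, namely the kleisins Rec8, Rad21 and Rad21l, the SMC subunits Smc1a, Smc1b and Smc3, the subunit Stag3, the protector Sgo2a, the release factor Wapl and the loader subunit Nipbl. A gene was tied to its feature in the count table by the authors' gene name or, failing that, by the largest overlap with a same-strand GENCODE M21 gene on GRCm38. Of the 10 genes, 9 had such a feature among the 38540 features counted. Rec8 had none, and its RNA is therefore not measured here.

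Cohesin is a ring of an SMC1 protein, SMC3 and a kleisin, with a STAG protein bound to the kleisin, and it holds sister chromatids together. Meiotic cells use a kleisin (REC8 or RAD21L), an SMC1 (SMC1B) and a STAG protein (STAG3) of their own beside the subunits of dividing body cells. In the mouse oocyte cohesion is laid down before birth and has to last until ovulation, when separase cuts REC8 on the chromosome arms while shugoshin (SGO2) and the phosphatase PP2A shield REC8 at the centromeres. Loss of chromosomal cohesin with maternal age is a known feature of the ageing oocyte, which is why the RNAs of these genes are of interest in the age comparison.

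The oocytes were fully grown germinal vesicle (GV) oocytes of virgin C57BL/6Babr females, 12 weeks old in the young group and 44 to 54 weeks old in the old group, with no treatment in either. Polyadenylated RNA of each oocyte was read by Smart-seq2 as the RNA half-library of a combined RNA and methylation protocol, and 42 young and 45 old oocytes made up the set used here. A young oocyte held 1579196 to 8231046 counts, with a median of 3002989, and an old oocyte 976456 to 5448310, with a median of 2379884. Which mouse an oocyte came from is in no label, so each age group stands as 1 sample, no difference between the groups has a replicate check and no p-value is given. The study predicted from the transcripts of each oocyte whether its chromatin had closed around the nucleolus (SN, the later and transcriptionally silent state) or not (NSN). This gave 30 young NSN, 12 young SN, 37 old NSN and 8 old SN oocytes, and comparisons of SN with NSN oocytes are descriptions, since RNA levels chose the classes. The paper holds it likely that these classes do not show the real state of the chromatin. It proposes NSN-like transcripts in most of the old oocytes that should have been SN.

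A level is given in CPM, read counts scaled to sequencing depth, taken for a class of oocytes as a whole, with an exact Poisson 95% interval. Ratios are log2 ratios of such levels with an exact binomial 95% interval. The counts are reads without molecular identifiers, so both intervals cover counting error only, and an SD or a range over oocytes describes the spread between oocytes. A gene was called different at 1.2-fold or more, read against the share of features that reached the same fold among the 12408 averaging 10 or more counts per oocyte. Of the 9 measured genes 8 passed this filter, and Rad21l did not. The 8 oocyte markers summed to 10356 to 22487 CPM in every oocyte of the set. The 7 granulosa markers with a feature, of 8 listed, summed to 5.67 to 52.2 CPM in young and 6.14 to 74.4 CPM in old oocytes, and the granulosa factor Foxl2 had 6 counts in all young and 2 in all old oocytes. Single granulosa markers went both ways with age. Inha stood at 6.43 CPM in young and 5.20 CPM in old oocytes, and Inhba at 0.525 and 1.17 CPM. Oocyte markers summed to a median of 17326 CPM in young NSN, 19386 in young SN, 17082 in old NSN and 20736 CPM in old SN oocytes, while granulosa markers had medians of 15.7, 17.6, 12.7 and 23.5 CPM in the same order. Their part in the SN comparisons below was not tested.

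The oocyte names fall into 2 sets, with and without the suffix A, whose meaning is not stated, and the sets stood apart in several of these genes. Of the young oocytes 21 carried the suffix and 21 did not, and of the old oocytes 22 and 23. Within young NSN oocytes 5 of the 8 genes were at least 1.2-fold lower with the suffix, namely Nipbl (log2 ratio -0.51), Wapl (-0.44), Smc1b (-0.40), Sgo2a (-0.38) and Rad21 (-0.31), where 10.1% of all features were lower, and Stag3 was higher (0.29), where 7.61% were. Within old NSN oocytes Rad21 (-0.48), Wapl (-0.43) and Nipbl (-0.26) were lower, where 8.59% of all features were, and 0 of 8 were higher, where 9.69% were. Wapl, for example, had a median of 272 CPM with and 343 CPM without the suffix in young NSN oocytes, and of 244 and 334 CPM in old NSN oocytes. The median totals were 2949280 and 3258130 counts in young and 2385430 and 2375430 counts in old NSN oocytes with and without the suffix. The part of the suffix in the comparisons below was not tested, and values within each set are given beside some of the results that change with it.

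Upstream sequences are shown for 5 genes. Rad21l is the gene that was higher in SN oocytes, Sgo2a, Wapl and Smc3 are among those that were lower there, and Smc1b came nearest to the threshold with age. Nipbl, which fell most in SN oocytes, has no entry in the sequence table. Each is the 250 bases before the RefSeq start on GRCm38.p6, on the strand of the gene, and capitals mark GCGGGA or its reverse complement, the core of an E2F-type site. Of the 10 genes, 8 had a window in the RefSeq table used.
Rad21l, chr2:151668534-151668783, minus strand: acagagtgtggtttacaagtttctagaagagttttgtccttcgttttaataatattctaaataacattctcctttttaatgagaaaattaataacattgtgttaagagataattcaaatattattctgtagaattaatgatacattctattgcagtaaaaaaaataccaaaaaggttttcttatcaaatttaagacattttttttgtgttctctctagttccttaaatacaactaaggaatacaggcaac
Smc1b, chr15:85131958-85132207, minus strand: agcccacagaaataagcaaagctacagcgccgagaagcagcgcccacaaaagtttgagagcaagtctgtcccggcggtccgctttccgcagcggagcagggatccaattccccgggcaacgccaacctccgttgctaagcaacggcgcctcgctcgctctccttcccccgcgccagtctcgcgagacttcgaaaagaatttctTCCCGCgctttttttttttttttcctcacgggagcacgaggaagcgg
Smc3, chr19:53600146-53600395, plus strand: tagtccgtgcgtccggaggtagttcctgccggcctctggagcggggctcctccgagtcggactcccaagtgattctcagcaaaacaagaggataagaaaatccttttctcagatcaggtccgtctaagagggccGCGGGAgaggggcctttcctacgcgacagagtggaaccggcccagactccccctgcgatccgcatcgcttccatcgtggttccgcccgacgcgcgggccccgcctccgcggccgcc
Sgo2a, chr1:57995724-57995973, plus strand: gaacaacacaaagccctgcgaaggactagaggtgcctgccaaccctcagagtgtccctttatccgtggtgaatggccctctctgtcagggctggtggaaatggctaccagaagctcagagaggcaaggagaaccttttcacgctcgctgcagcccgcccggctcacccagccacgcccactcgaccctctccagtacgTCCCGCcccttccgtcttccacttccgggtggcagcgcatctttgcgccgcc
Wapl, chr14:34673678-34673927, plus strand: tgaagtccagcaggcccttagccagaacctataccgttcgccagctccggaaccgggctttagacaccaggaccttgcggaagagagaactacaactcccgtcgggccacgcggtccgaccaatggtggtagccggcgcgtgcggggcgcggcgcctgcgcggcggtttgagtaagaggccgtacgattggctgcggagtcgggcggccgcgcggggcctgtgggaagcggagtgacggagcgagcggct
The Rad21l window stands out by its composition, with 25.6% G and C, and 0.377% of all 32851 RefSeq windows had a lower share. The other 4 windows shown had 58% (Smc1b), 62% (Sgo2a), 64.4% (Smc3) and 67.6% (Wapl), beside a median of 52.4% over all windows. GCGGGA, searched on both strands, occurred in the windows of Rec8, Smc1b and Smc3 and in 1 of 2 of Sgo2a, and in 16.9% of all windows. CCAAT, also searched on both strands, occurred in the windows of 6 of the 8 genes and in 33.8% of all windows. For Sgo2a it lay only in the window not shown. The Rad21l window held neither word. The feature counted as Rad21l began 2104 bases before the RefSeq start, while that of Smc1b began 42, that of Smc3 271 and that of Wapl 497 bases before it. The windows of Rad21l, Smc3 and Wapl thus lie inside the counted features.

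The question of the age comparison was whether the RNA of cohesin genes is lower in oocytes of old females. Of the 8 genes that passed the filter, 0 reached 1.2-fold higher and 0 reached 1.2-fold lower in old oocytes, where 2.35% of all features were higher and 5.78% lower. The log2 ratios of the 8 genes, old over young, ran from -0.03 (Wapl) to 0.22 (Smc1b), with a median of 0.02 beside -0.01 over all features. Smc1b, whose protein is the SMC1 of meiotic cohesin, was the one nearest to the threshold, and it lay above its young level. These are levels of polyadenylated RNA, which say nothing of the protein on the chromosomes.

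**Figure D1:**
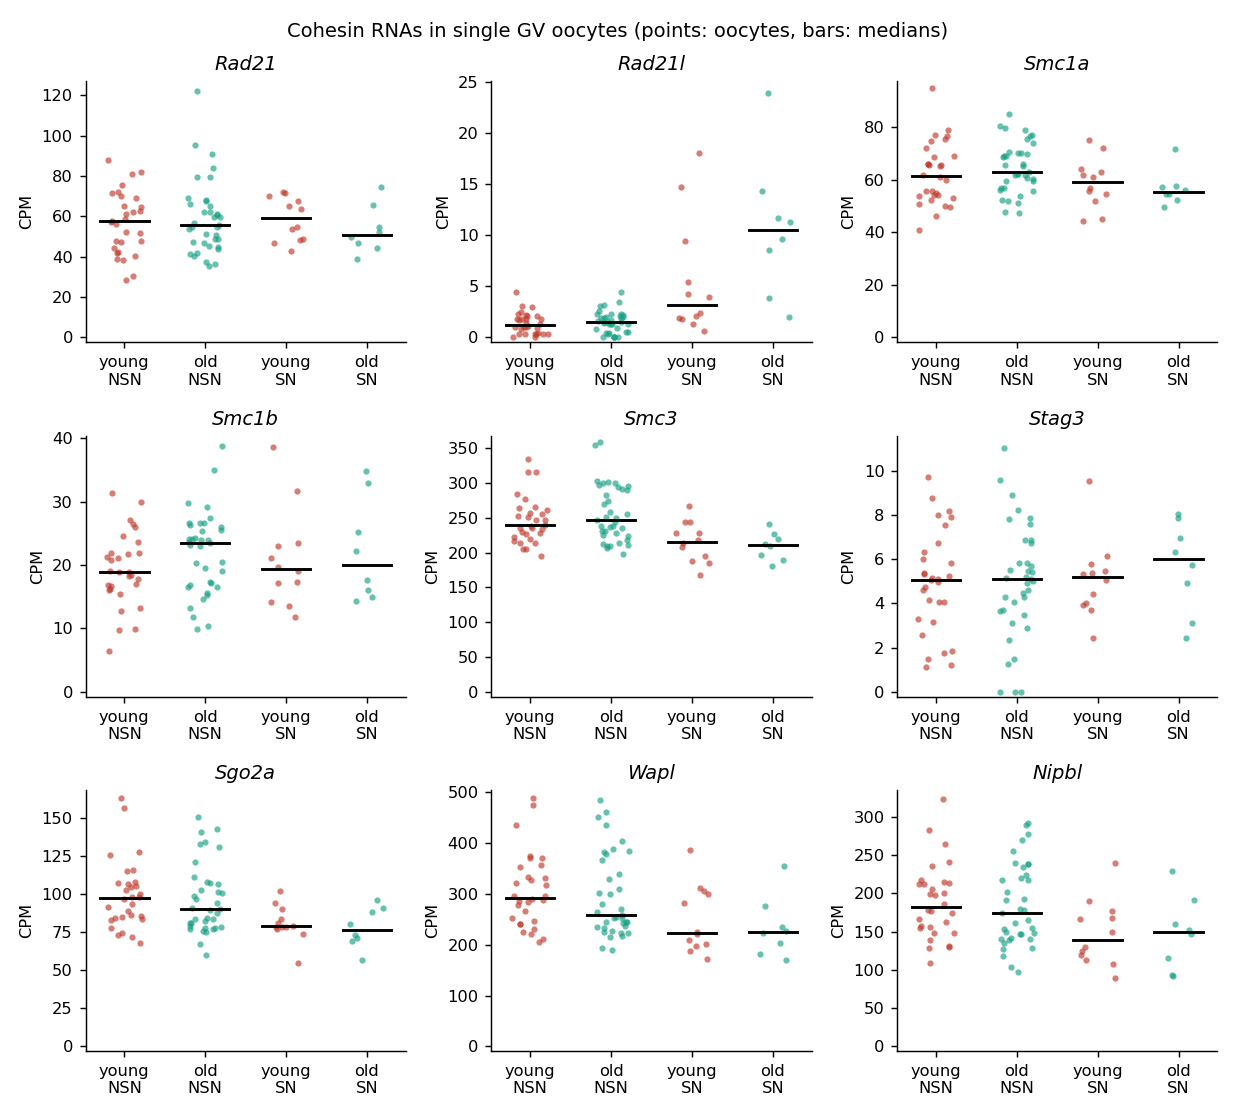
Level of 9 cohesin genes in CPM (vertical axes, linear, from 0) in single young (red) and old (green) oocytes, split by predicted configuration. Each point is 1 oocyte and the black bar is the median of the class. Rad21l lies at 4.48 CPM or lower in every NSN oocyte and reaches 23.9 CPM in SN oocytes, while Smc3, Sgo2a, Wapl and Nipbl lie lower in SN oocytes and the young and old points overlap in every panel.

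Among the kleisins, Rad21 encodes the subunit shared with mitotic cells (chromosome 15, 51962604 to 51993526, minus strand). Its level over young oocytes had a lowest value of 28.4, a median of 57.5 and a highest value of 88 CPM, and over old oocytes 35.3, 54.8 and 122 CPM. The ranges overlapped, and 19 of 45 old oocytes lay above the young median. The summed levels were 57.3 CPM (56 to 58.6) in young and 57.9 CPM (56.5 to 59.3) in old oocytes, a log2 ratio of 0.01 (-0.03 to 0.06). With the suffix A the ratio was -0.09 (-0.17 to -0.02), and without it 0.09 (0.03 to 0.16).

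Rad21l encodes a kleisin found only in germ cells, best known from the pairing of chromosomes in early prophase (chromosome 2, 151644304 to 151670637, minus strand). It was close to the limit of detection, with 320 counts in all young and 376 in all old oocytes, and 2 young and 5 old oocytes had no count. Over young oocytes the lowest, median and highest levels were 0, 1.79 and 18.1 CPM, and over old oocytes 0, 1.86 and 23.9 CPM. The medians were thus nearly equal, and the higher levels came from a few oocytes of either age. Summed, Rad21l stood at 2.40 CPM (2.14 to 2.68) in young and 3.32 CPM (2.99 to 3.67) in old oocytes, a log2 ratio of 0.47 (0.25 to 0.69). Without old oocyte 46 alone the ratio was 0.25, without young names 1 to 7 it was 0.18 and without old names 41 to 48 it was 0.08, each under 1.2-fold, while without old names 9 to 16 it was 0.76. A run of names is a stretch of consecutive oocyte numbers, 3 of each age, and what a run stands for is not stated.

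For Rec8, whose kleisin is the one that separase cuts at the meiotic divisions, the GENCODE gene spans chromosome 14, 55618037 to 55625395, on the plus strand. The only feature of that strand within it was a fragment of 634 bases, from 55618183 to 55618816, whose overlap with the gene, as shared over joint span, was 0.086. It had 0 counts in all 88 oocytes, which allows up to 0.0120 CPM over all of them. This fragment does not stand for the gene, and no level of Rec8 follows from it.

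Smc1a encodes the SMC1 of mitotic cohesin (chromosome X, 152016259 to 152063874, plus strand). Over young oocytes its lowest, median and highest levels were 40.9, 61.1 and 94.9 CPM, and over old oocytes 47.5, 61.8 and 85.1 CPM. The old oocytes lay within the young range. Summed, it stood at 61.3 CPM (59.9 to 62.6) in young and 62.1 CPM (60.6 to 63.5) in old oocytes, a log2 ratio of 0.02 (-0.03 to 0.07).

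Smc1b (chromosome 15, 85063327 to 85131999, minus strand) had lowest, median and highest levels of 6.46, 19 and 38.6 CPM over young oocytes and of 9.92, 23.1 and 38.8 CPM over old oocytes. The ranges were nearly the same, and 29 of 45 old oocytes lay above the young median. Its summed level was 19.5 CPM (18.8 to 20.3) in young and 22.8 CPM (21.9 to 23.7) in old oocytes, 1.17-fold higher in old oocytes with a log2 ratio of 0.22 (0.14 to 0.30). The difference came largely from 1 run of oocyte names, old names 41 to 48, at 26.4 CPM. The other old runs stood at 18.6 and 21.6 CPM and the 3 young runs at 18.3 to 20.1 CPM, and without names 41 to 48 the ratio was 0.05. By suffix, it was 0.39 (0.27 to 0.51) over oocytes with the suffix A, past 1.2-fold, and 0.07 (-0.04 to 0.18) over those without.

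Smc3, the SMC partner common to every cohesin ring (chromosome 19, 53600125 to 53645833, plus strand), was among the 2 most abundant genes of the list. Its lowest, median and highest levels were 168, 235 and 335 CPM over young oocytes and 180.4, 239 and 358 CPM over old oocytes. The summed levels of 237 CPM (234 to 239) and 248 CPM (245 to 250.5) gave a log2 ratio of 0.07 (0.04 to 0.09), which is above counting error and small beside the spread between oocytes, an SD of 34.7 CPM among young and 41.9 CPM among old ones.

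Stag3, the STAG subunit of meiotic cohesin (chromosome 5, 138280196 to 138312393, plus strand), was low, at 4.91 CPM (4.54 to 5.31) in young and 5.19 CPM (4.78 to 5.63) in old oocytes as summed. Over young oocytes its lowest, median and highest levels were 1.14, 5.08 and 9.70 CPM, and over old oocytes 0, 5.16 and 11.0 CPM, with 3 old oocytes at no count. The log2 ratio was 0.08 (-0.08 to 0.24), and the groups overlapped over nearly their whole range. With the suffix A the ratio was -0.09 (-0.33 to 0.15), and without it 0.24 (0.01 to 0.47). A feature on the opposite strand overlaps that of Stag3, as is also the case for Rad21, Smc1a and Wapl, and reads in such stretches cannot be told apart in a library that does not mark strand.

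Sgo2a encodes the shugoshin that recruits PP2A to centromeric cohesin in meiosis (chromosome 1, 57995954 to 58025899, plus strand). Its lowest, median and highest levels were 55.1, 89.7 and 163 CPM over young oocytes and 56.9, 88.4 and 151 CPM over old oocytes. Both ages thus covered the same range. The summed levels were 95.3 CPM (93.7 to 97.0) and 94.5 CPM (92.7 to 96.3), a log2 ratio of -0.01 (-0.05 to 0.02). With the suffix A the ratio was 0.09 (0.03 to 0.14), and without it -0.10 (-0.15 to -0.05). Reads of Sgo2a may be shared with its close relative Sgo2b, which was counted as a feature of its own, and how the counting split them is not given in the sources used here.

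Wapl, which opens the ring and releases cohesin from chromatin (chromosome 14, 34673431 to 34747983, plus strand), had lowest, median and highest levels of 172, 287 and 489 CPM over young oocytes and of 169, 253 and 484 CPM over old oocytes. The old median was lower, with 29 of 45 old oocytes below the young median, but the summed levels differed little, at 291 CPM (288 to 294) and 285 CPM (282 to 288). The log2 ratio was -0.03 (-0.05 to -0.01) as summed and -0.18 between the medians over oocytes.

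Nipbl, the large subunit of the cohesin loader (chromosome 15, 8290236 to 8444698, minus strand), had lowest, median and highest levels of 89.8, 171 and 323 CPM over young oocytes and of 92.4, 161 and 292 CPM over old oocytes. Its summed levels of 177 CPM (175 to 180) in young and 179 CPM (176 to 181) in old oocytes gave a log2 ratio of 0.01 (-0.02 to 0.04). The spread between oocytes, an SD of 50.2 CPM in young and 54.1 CPM in old oocytes, was far larger than the difference. With the suffix A the ratio was 0.16 (0.12 to 0.21), and without it -0.11 (-0.15 to -0.08).

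**Figure D2:**
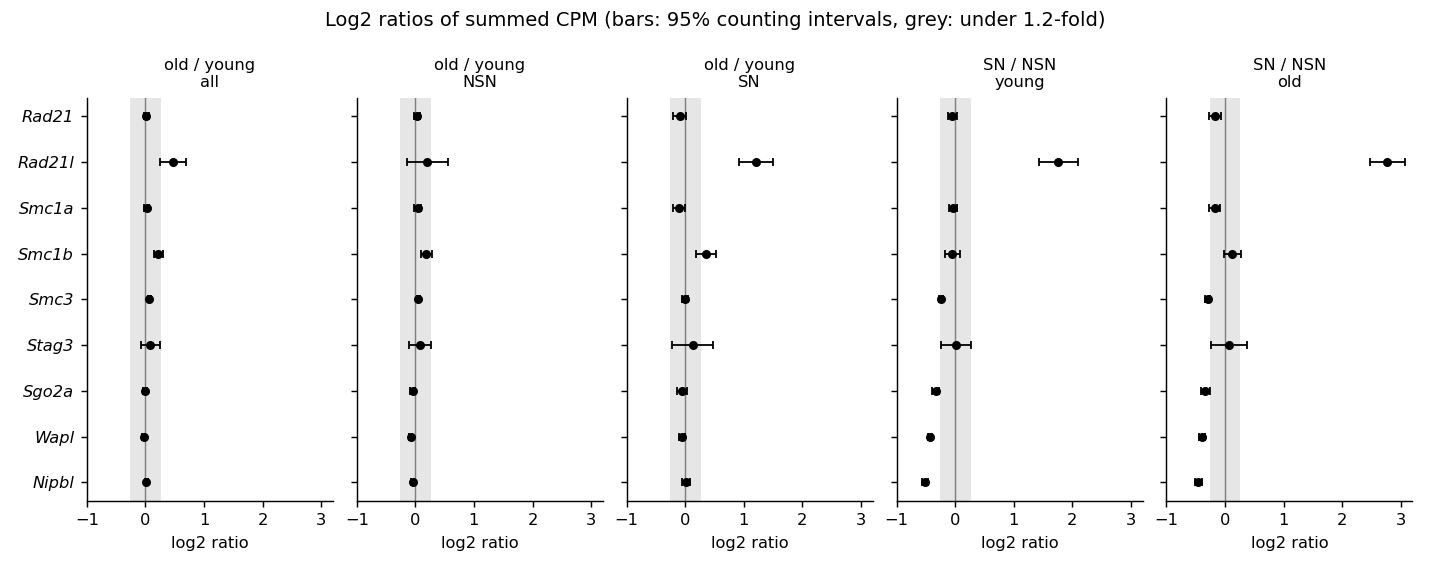
Log2 ratios of summed CPM for 9 cohesin genes (rows) in 5 comparisons (panels), with 95% counting intervals as bars and the range under 1.2-fold in grey. The age ratios of all genes but Rad21l and, in SN oocytes, Smc1b lie in the grey range, while Sgo2a, Wapl and Nipbl lie left of it and Rad21l right of it when SN is set against NSN.

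Levels between genes were compared per kilobase of annotated exon. In young oocytes the order ran from Wapl at 43.9 and Smc3 at 42.7 CPM per kb through Nipbl at 18.8, Sgo2a at 13.6, Rad21 at 13.5 and Smc1a at 10.6 to Smc1b at 4.83, Rad21l at 1.45 and Stag3 at 0.857 CPM per kb. In old oocytes Smc3, at 44.7, stood above Wapl, at 43 CPM per kb, and Rad21 above Sgo2a. At both ages the interquartile ranges over oocytes overlapped between Wapl and Smc3 and among Sgo2a, Rad21 and Smc1a. They also overlapped between Rad21l and Stag3 and between Nipbl and Rad21, so the genes of these sets did not differ beyond their spread. The 3 measured meiosis-specific subunits were thus the lowest of the 9 genes at both ages. Stag1, a body-cell subunit outside the 9, stood at 2.16 CPM per kb in young oocytes, below Smc1b. Per kb of the longest coding transcript Sgo2a stood above Nipbl at both ages and Smc3 above Wapl in young oocytes.

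The share of the meiotic member within its paralogue group was taken from counts per kb of exon, which does not depend on the depth of an oocyte. Smc1b held 31.2% (30.3 to 32.2) of the SMC1 counts in young oocytes and 34.3% (33.3 to 35.4) in old oocytes. Over single oocytes this share ran from 10.4% to 55.0% in young and from 15.8% to 50.6% in old oocytes, so the change was small beside the spread. Stag3 held 6.86% (6.37 to 7.38) of the STAG counts in young and 7.04% (6.51 to 7.60) in old oocytes, the rest being Stag1 and Stag2, the STAG proteins of body cells. Stag2 alone stood at 9.48 CPM per kb in young and 9.73 in old oocytes. Rad21l held 9.66% (8.70 to 10.7) of the counts of Rad21 and Rad21l in young and 12.8% (11.6 to 14) in old oocytes, with Rec8 left out for want of a feature.

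**Figure D3:**
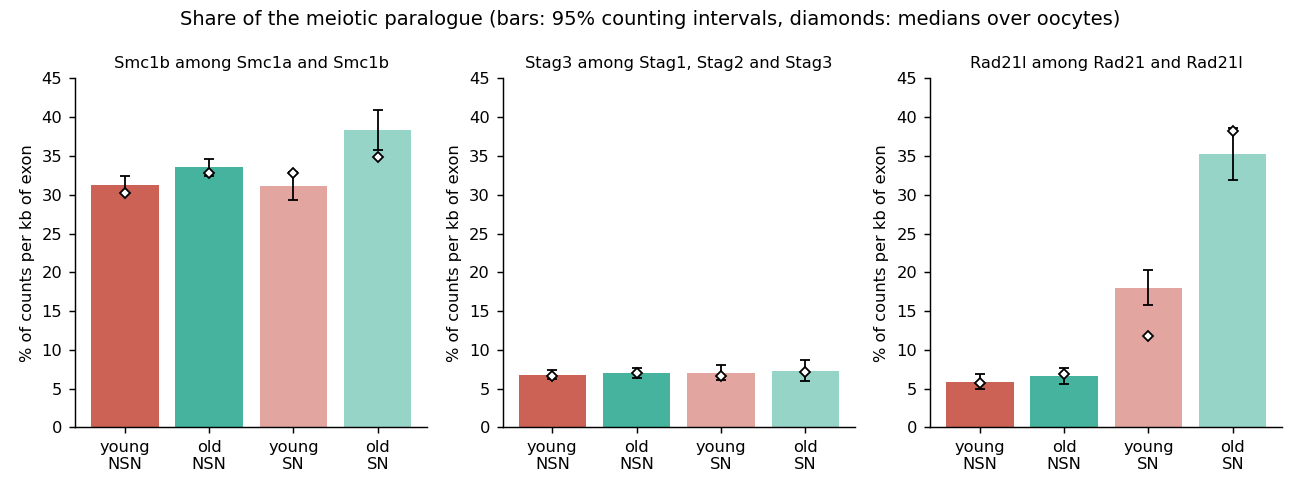
Share of Smc1b, Stag3 and Rad21l within their paralogue groups, in percent of counts per kb of exon (vertical axes, from 0), for the 4 classes of age and configuration. Bars give the summed share with its 95% counting interval and diamonds the median over oocytes. The share of Stag3 runs from 6.81% to 7.25%, that of Smc1b is highest in old SN oocytes at 38.3% with a median over oocytes of 34.9%, and that of Rad21l is 5.90% and 6.62% in NSN and 18.0% and 35.3% in SN oocytes.

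Within NSN oocytes, which hold 67 of the 87 oocytes, the age comparison again called 0 of 8 genes in either direction, with 2.63% of all features higher and 7.3% lower. Smc1b had a log2 ratio of 0.19 (0.09 to 0.28), and 25 of 37 old NSN oocytes lay above the young NSN median of 18.9 CPM. With each oocyte thinned to 900000 counts this ratio was 0.30, and between the medians over oocytes 0.31, both past 1.2-fold. With the suffix A it was 0.48 (0.35 to 0.62), and without it -0.05 (-0.18 to 0.07). With both sets pooled, Smc3 had 0.05, Sgo2a -0.05, Wapl -0.08 and Nipbl -0.05. Stag3 was past 1.2-fold without the suffix, at 0.34 (0.07 to 0.60), and had -0.21 (-0.48 to 0.06) with it. Within SN oocytes, with 8 on the old side, Smc1b alone was called, at 24.5 CPM (22.3 to 26.7) in old and 19.1 CPM (17.7 to 20.5) in young oocytes, a log2 ratio of 0.36 (0.19 to 0.53), where 11.7% of all features were higher and 11% lower. Of the 8 old SN oocytes 4 lay above the young SN median, and the call was lost without any one of 3 oocytes, with ratios of 0.19 without old oocyte 41, 0.25 without old oocyte 47 and 0.26 without young oocyte 24A. Over oocytes with the suffix A the ratio was 0.01, and over those without 0.47.

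The RNA of 5 of the 9 measured genes differed between the configurations at 1 age or both. In young oocytes 3 of the 8 genes past the filter were at least 1.2-fold lower in SN than in NSN oocytes and 0 were higher, with 7.57% of all features lower and 14.5% higher. In old oocytes 4 of 8 were lower and 0 higher, with 19.7% of all features lower and 23.8% higher. The genes called lower were Sgo2a, Wapl and Nipbl at both ages and Smc3 in old oocytes. The median log2 ratio of the 8 genes was -0.15 in young and -0.24 in old oocytes, beside 0.01 and 0.00 over all features. Rad21l, which did not pass the filter, went the other way. The size of the fall moved with the suffix. For SN over NSN within a suffix set no share over all features is given, so the next counts have no background. Over young oocytes with the suffix A, 7 SN against 14 NSN, 0 of 8 genes reached 1.2-fold, and over those without, 5 SN against 16 NSN, Smc3, Sgo2a, Wapl and Nipbl were lower and Stag3 was higher (0.33). Over old oocytes with the suffix, 3 SN against 19 NSN, Smc1b was lower (-0.31) and Stag3 higher (0.27), and none of the 4 genes above was called. Over those without, 5 SN against 18 NSN, the 4 genes and Rad21 (-0.29) were lower and Smc1b was higher (0.35). The SN levels differed less between the sets than the NSN levels did for Wapl, at 233 and 236 CPM in young SN oocytes with and without the suffix beside 263 and 355 CPM in young NSN oocytes.

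Nipbl showed the largest fall with configuration among the 8. In young oocytes its level ran from 109 to 323 CPM with a median of 183 over NSN oocytes, and from 89.8 to 239.8 CPM with a median of 139 over SN oocytes. In old oocytes it ran from 96.5 to 292 CPM with a median of 174 over NSN, and from 92.4 to 229 CPM with a median of 149 over SN oocytes. The classes overlapped at both ages, and 10 of 12 young and 6 of 8 old SN oocytes lay below the NSN median of their age. The log2 ratios of the summed levels were -0.51 (-0.56 to -0.47) in young and -0.45 (-0.51 to -0.40) in old oocytes. They were -0.16 and -0.17 over oocytes with the suffix A, under 1.2-fold, and -0.80 and -0.67 over those without.

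Wapl followed with log2 ratios of -0.42 (-0.46 to -0.39) and -0.39 (-0.44 to -0.35). Its median fell from 293 to 223 CPM between young NSN and young SN oocytes, and from 259 to 225 CPM between the old classes. Of 12 young SN oocytes 8, and of 8 old SN oocytes 6, lay below the NSN median of their age. At 900000 counts per oocyte the young ratio was -0.24, just under 1.2-fold. With the suffix A the ratios were -0.17 and -0.22, and without it -0.59 and -0.58.

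Sgo2a had log2 ratios of -0.33 (-0.39 to -0.27) in young and -0.33 (-0.41 to -0.26) in old oocytes. Its median was 97.3 CPM in young NSN and 79.0 CPM in young SN oocytes, with 11 of the 12 SN oocytes below the NSN median. In old oocytes the medians were 90.3 and 76.9 CPM, with 6 of 8 below. With the suffix A the ratios were -0.14 and -0.21, and without it -0.44 and -0.46. Smc3 had ratios of -0.25 (-0.28 to -0.21) and -0.30 (-0.35 to -0.25), with medians of 239 and 216 CPM in young and 247 and 211 CPM in old oocytes. All 8 old SN oocytes lay below the old NSN median of Smc3, and 9 of 12 did so in young oocytes. With the suffix A the ratios were -0.09 and -0.26, and without it -0.42 and -0.35.

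The calls in old oocytes depend on how oocytes are combined. Between the medians over oocytes the 4 log2 ratios were -0.23 (Smc3), -0.23 (Sgo2a), -0.20 (Wapl) and -0.23 (Nipbl), all under 1.2-fold and all in the same direction. The 6 runs of oocyte names, each of 1 age, give another view, as each held SN and NSN oocytes. Smc3 and Sgo2a were lower in SN in 6 of 6 runs, which held for 7.21% of all features, while 12% were higher in all 6. Wapl and Nipbl were lower in 5 of 6 runs, and the exception was old names 9 to 16, with 2 SN oocytes, where Nipbl stood at 217 CPM in SN and 161 CPM in NSN oocytes. The runs held 1 to 6 SN oocytes each, and the SN and NSN oocytes of a run could differ in suffix. Within the 8 combinations of run and suffix that held both configurations, Smc3 and Sgo2a were lower in SN in 8, Wapl in 7 and Nipbl in 6, with median log2 ratios of -0.21, -0.31, -0.26 and -0.30. No share over all features is given for these combinations, so counts over them have no background.

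Rad21l was higher in SN oocytes at both ages. In NSN oocytes its lowest, median and highest levels were 0, 1.25 and 4.44 CPM in young and 0, 1.47 and 4.48 CPM in old oocytes. In SN oocytes they were 0.633, 3.14 and 18.1 CPM in young and 1.99, 10.5 and 23.9 CPM in old oocytes. Of the young SN oocytes 4 of 12, and of the old SN oocytes 6 of 8, lay above the highest NSN oocyte of their age, and the rest lay within the NSN range. Summed, the level was 1.42 CPM (1.19 to 1.68) in young NSN, 4.83 CPM (4.16 to 5.58) in young SN, 1.64 CPM (1.39 to 1.92) in old NSN and 11.2 CPM (9.78 to 12.8) in old SN oocytes.

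The log2 ratios of Rad21l, SN over NSN, were 1.76 (1.44 to 2.10) in young and 2.77 (2.47 to 3.08) in old oocytes. Leaving out single oocytes kept them between 1.47 and 1.98 and between 2.51 and 2.90. With the suffix A they were 1.99 and 3.04, and without it 1.90 and 2.54. The level was higher in SN oocytes in 5 of 6 runs, and the exception was young names 1 to 7, whose single SN oocyte had 1 count. Within the 8 combinations of run and suffix it was higher in 8, that oocyte included. The counts behind these levels were 135, 185, 153 and 223 in the order young NSN, young SN, old NSN and old SN, so a single oocyte rested on few reads. Rad21 itself had log2 ratios of -0.05 (-0.12 to 0.03) and -0.17 (-0.27 to -0.08) in the same comparisons.

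Between the ages, Rad21l had a log2 ratio of 0.21 (-0.14 to 0.55) in NSN oocytes and of 1.21 (0.93 to 1.5) in SN oocytes, with 7 of 8 old SN oocytes above the young SN median. The SN ratio was 1.67 over oocytes with the suffix A, 3 of them old, and 0.69 over those without. The NSN ratio was 0.62 (0.04 to 1.23) with the suffix, past 1.2-fold, and 0.05 (-0.39 to 0.49) without it. Its share of the counts of Rad21 and Rad21l per kb of exon was 5.90% (4.99 to 6.93) in young NSN, 6.62% (5.66 to 7.68) in old NSN, 18.0% (15.8 to 20.4) in young SN and 35.3% (31.9 to 38.7) in old SN oocytes. Whether the 2 age ratios differ beyond the spread between mice could not be tested. The remaining genes stayed under 1.2-fold across configuration with both suffix sets pooled. Smc1b had ratios of -0.05 (-0.17 to 0.08) in young and 0.13 (-0.02 to 0.27) in old oocytes, Stag3 of 0.02 (-0.23 to 0.26) and 0.08 (-0.24 to 0.38), and Smc1a of -0.04 (-0.11 to 0.03) and -0.18 (-0.27 to -0.08).

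Over NSN oocytes of both suffix sets, the 4 genes that were lower in SN oocytes varied together to differing degrees, and part of this lay between the sets. At 900000 counts per oocyte, Wapl and Nipbl had a Spearman's rho of 0.74 over 30 young and of 0.73 over 37 old NSN oocytes. Wapl and Sgo2a had 0.63 and 0.68, and Smc3 and Nipbl 0.34 and 0.75. The weakest of their 6 pairs was Smc3 and Sgo2a, with 0.28 and 0.49. Rad21, which stayed under 1.2-fold across configuration, still followed Wapl, with 0.63 and 0.57. Over all 36 pairs of the 9 genes the median rho was 0.10 in young and 0.13 in old NSN oocytes, and Stag3, at few counts, reached no rho above 0.10 with any of the others. Within the sets the values were mostly lower. Wapl and Nipbl had 0.49 over 14 young and 0.40 over 19 old NSN oocytes with the suffix A, and 0.71 over 16 young and 0.75 over 18 old without it. Wapl and Sgo2a had 0.32 and 0.30 with and 0.54 and 0.71 without the suffix. Rad21 and Wapl had 0.79 and 0.05 with and 0.53 and 0.72 without it. The genes of an oocyte share its library and total, and these values are a description.

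**Figure D4:**
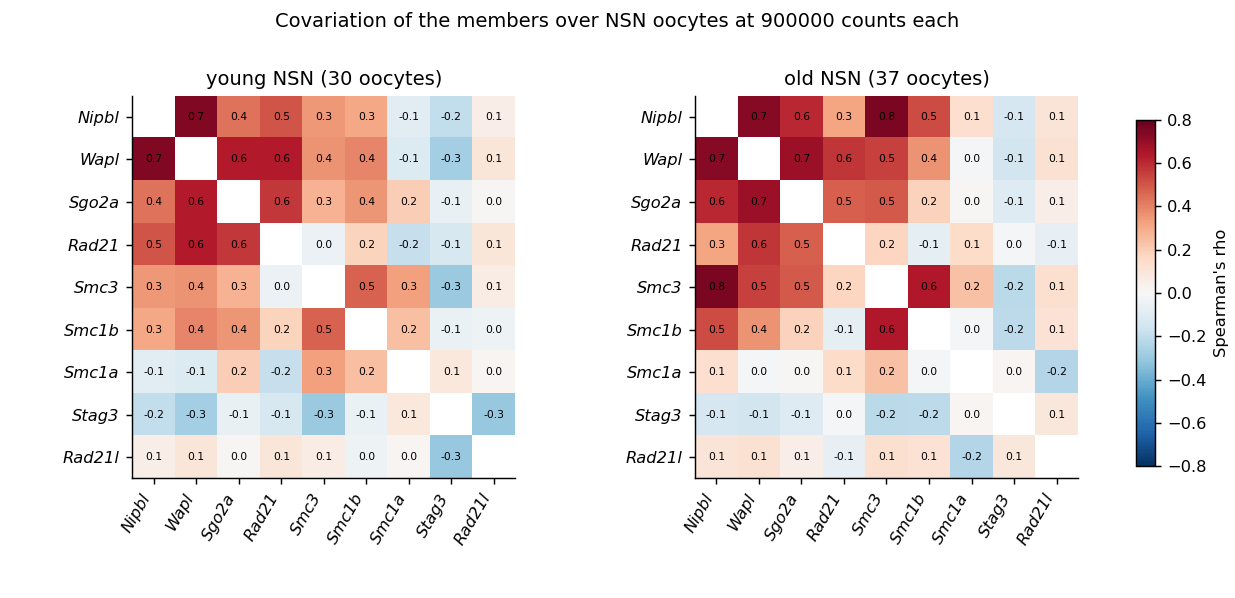
Spearman's rho between each pair of 9 cohesin genes over 30 young NSN (left) and 37 old NSN oocytes (right), each thinned to 900000 counts, with the scale from -0.8 (blue) to 0.8 (red). Both suffix sets are pooled, and Nipbl, Wapl, Sgo2a and Rad21 form a red block at both ages, and the rows of Stag3, Smc1a and Rad21l are mostly pale.

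The features most like 3 of the genes over all 87 oocytes were looked up among 5366 features with a mean count of 100 or more, by Spearman's rho of log2(CPM + 1), with configurations and suffix sets pooled. Sgo2a was followed most closely by Papola, a poly(A) polymerase (0.76), Cdc27, a subunit of the anaphase-promoting complex (0.75), and Casp8ap2 (0.73). Smc1b was followed by Ptp4a2 (0.63), Pou4f1 (0.61) and Rdx (0.61), and Stag3, at its low counts, by Tollip (0.40), Phka2 (0.39) and Adar (0.38). After thinning, the values for Sgo2a were 0.60, 0.63 and 0.60 and 1 of its 3 features stayed among the closest 3. For Smc1b and Stag3 0 of 3 did, so their neighbours changed with thinning.

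The study asked whether transcript levels become more variable between oocytes with age. Variability was taken as the squared coefficient of variation of CPM over oocytes, less the part expected from counting, and called at 1.5-fold. Of the 8 genes past the filter 0 were more variable in old oocytes, where 42.7% of 12377 features were, and 1 was less variable, where 7.18% were. The median log2 ratio of the squared coefficient, old over young, was 0.25 for the 8 genes and 0.45 for all features.

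Rad21 came nearest to the threshold, with a coefficient of variation of 23.3% in young and 28.4% in old oocytes and a log2 ratio of 0.57. Smc3 had 14.1% and 16.3%, Stag3 33.9% and 39%, Wapl 25.6% and 28.4%, Nipbl 28% and 30.0% and Sgo2a 22.1% and 23.1%. Smc1b, at 29.2% and 26.7%, and Smc1a, at 16.7% and 12.7%, were less variable in old oocytes, and Smc1a was the one past the threshold. The count of more variable genes depends on which oocytes are taken. It was 5 of 8 without young names 1 to 7, and 2 of 8 without old names 9 to 16, without old names 41 to 48 or at 900000 counts per oocyte. Over oocytes with the suffix A it was 3 of 8, and over those without 2 of 8. The share of all features is given for the full set only, so these counts have no background.

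The 3 young and 3 old runs of oocyte names were also compared as a measure of spread. Of the 8 genes, 0 had all 3 old runs above or all 3 below the young runs, where 6.21% of all features had them above and 7.1% below. For Sgo2a the young runs stood at 91.3 to 102 CPM and the old runs at 93.8 to 95.2 CPM. For Nipbl they stood at 159 to 201 and at 166 to 201 CPM.

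A difference with age at the Smc1a locus lay in a feature annotated on the opposite strand. The study's table gives the name Smc1a to a feature of 3528 bases on the minus strand (chromosome X, 152032779 to 152036306), which lies inside the gene. It begins 16351 and ends 19878 bases from the gene's start, spans 3 of its 24 merged exons, and 14.5% of it is Smc1a exon. GENCODE M21 has 0 genes on that strand there. By the overlap rule the plus-strand feature is Smc1a, and it was used above.

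The opposite-strand feature had lowest, median and highest levels of 19.4, 94.5 and 219 CPM over young oocytes and of 6.37, 58 and 141 CPM over old oocytes. The groups overlapped, but 40 of 45 old oocytes lay below the young median. Its summed level was 94.0 CPM (92.3 to 95.6) in young and 56.6 CPM (55.3 to 58) in old oocytes, a log2 ratio of -0.73 (-0.77 to -0.69), and 0.33% of the features past the filter had a lower ratio. All 3 old runs, at 46.8 to 63.2 CPM, lay below the 3 young runs, at 89.9 to 104 CPM. The ratio was -0.69 (-0.73 to -0.64) within NSN and -0.85 (-0.95 to -0.76) within SN oocytes. With both suffix sets pooled, SN and NSN oocytes of the same age differed by less than 1.2-fold. Without the suffix the log2 ratio of SN over NSN was 0.31 in young and 0.27 in old oocytes, both past 1.2-fold. With it the values were 0.01 and -0.24. The age ratio was -0.45 (-0.51 to -0.39) over oocytes with the suffix A. Over those without it was -1.04 (-1.11 to -0.98), where all 23 old oocytes lay below the young median. The plus-strand Smc1a feature had an age ratio of 0.02 over all oocytes. Since the library kit does not mark strand, and how the counting treated it is not stated in the sources used here, reads in the shared stretch cannot be assigned to either feature.

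**Figure D5:**
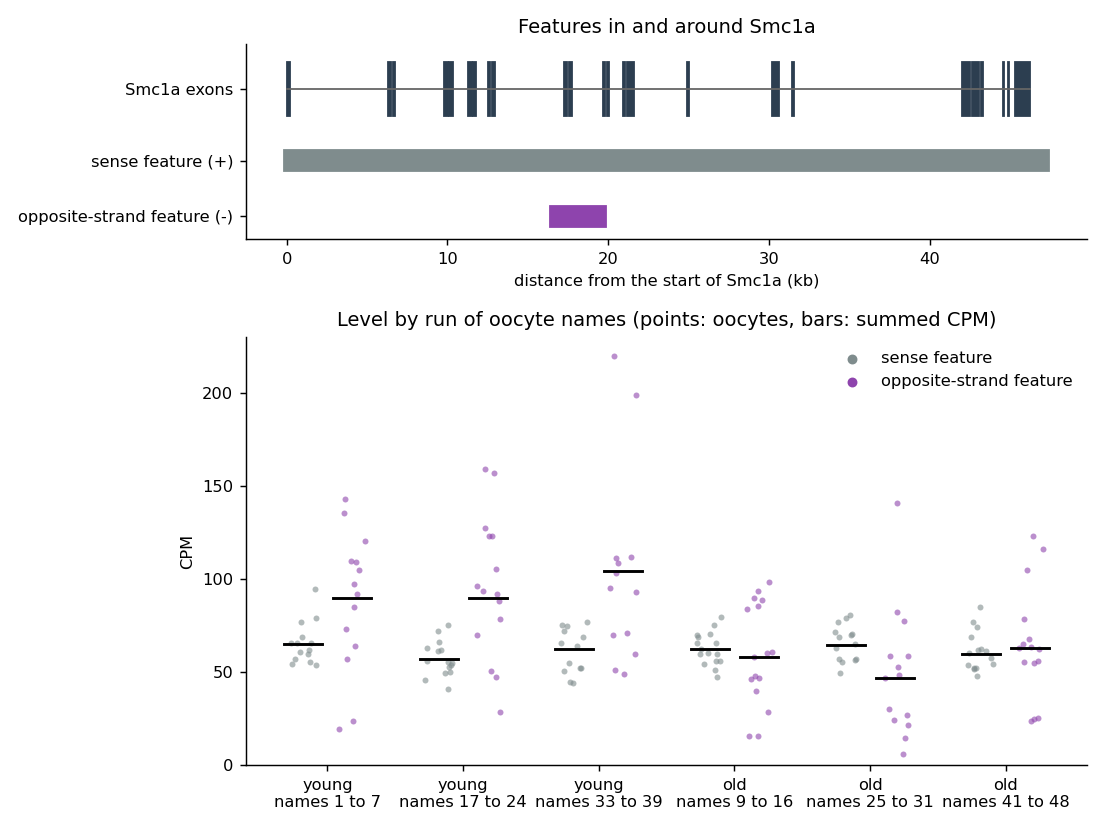
Top, the exons of Smc1a and the 2 features counted there, by distance in kb from the start of the gene. Bottom, the level of both features in CPM (from 0) in single oocytes by run of names, with bars at the summed level. The plus-strand feature stands between 57.0 and 65.4 CPM in all runs, and the opposite-strand feature stands at 89.9 to 104 CPM in young and 46.8 to 63.2 CPM in old runs.

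The wider machinery was described with 27 further genes of loading, acetylation, protection and cleavage, all of which had a feature, and 26 passed the filter. With age 0 of 26 reached 1.2-fold in either direction, beside 2.35% of all features higher and 5.78% lower, and the median log2 ratio was 0.03 beside -0.01 over all features. The 3 highest ratios belonged to Ppp2r1b, a scaffold subunit of PP2A (0.17), Pds5a, a partner of Wapl (0.14), and Meikin, which helps shugoshin guard cohesin in meiosis I (0.13). The 3 lowest belonged to Sgo2b (-0.19), Mau2, the loader partner of Nipbl (-0.16), and the kinase gene Csnk1d (-0.14). Mau2, for example, stood at 95.9 CPM in young and 85.9 CPM in old oocytes, with an SD over oocytes of 13.5 and 17.4 CPM. Ppp2cb had 10 counts in young and 13 in old oocytes and did not pass the filter.

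With configuration the counts of this list were near the shares over all features in young oocytes. In old oocytes 0 of 26 were lower, where 19.7% of all features were. In young oocytes 3 of 26 were higher in SN, namely Pds5a (0.58), Csnk1d (0.32) and the SMC3 deacetylase gene Hdac8 (0.30), and 2 were lower, namely Sgo2b (-0.41) and the PP2A catalytic subunit gene Ppp2ca (-0.27), beside 14.5% of all features higher and 7.57% lower. In old oocytes 8 of 26 were higher and 0 lower, beside 23.8% and 19.7% of all features, with Pds5a at 1.11 and Hdac8 at 0.58 among them. Mau2 had 0.25 in young and 0.30 in old oocytes, on the other side of its loader partner Nipbl, which was called lower. Pds5a likewise stood opposite Wapl. Between the ages in SN oocytes 5 of 26 were higher in old oocytes, namely Pds5a (0.60), Set (0.51), Ppp2r1b (0.48), Stag1 (0.42) and Esco2 (0.33), and 0 were lower, beside 11.7% of all features higher and 11% lower. The genes of this paragraph were named after their values were seen.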

How the data were processed

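Raw counts of 38540 features in 88 oocytes were deposited by the authors, made from trimmed reads mapped to GRCm38 by HiSat2, with only primary alignments counted, over features of a transcriptome assembled from oocytes. The counting program and its strand setting are not given in the sources used here. Configurations were taken from the study's supplementary table, and the old oocyte without one (48A) was left out. The genes, lists and tests were chosen with earlier results of these data known.

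Counts were summed per class and divided by the summed totals in Python 3.11.15 with numpy 2.4.6 and scipy 1.17.1. TMM factors came from edgeR 4.0.16, and thinning drew 900000 counts per oocyte. Gene names came from the part of the table in hand or from spans overlapping by 0.3 or more of the joint span, and 302 table names that lie on no same-strand gene were dropped. A name fitting 2 features went to the larger overlap. Named beside the 10 genes are the listed pathway genes past 1.2-fold with age, or else the 3 highest and 3 lowest, and the 3 features closest to Smc1b, Stag3 and Sgo2a. The calculations were tested on simulated counts. Alternatives covered oocytes, depth, scaling, estimator, fold, filter, name suffix and single runs or oocytes. Methylation data were not analysed here.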

Additional observations from a re-analysis of the deposited data

Results flagged for a closer look

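Smc1a in old SN oocytes was picked out because 1 of the 8 oocytes lay far from the others. Old oocyte 28A stood at 71.7 CPM, the lowest of the others at 49.6 CPM, and its gap to the nearest was 0.638 of the whole range, past Dixon's critical value for 8 samples. Of the 9 genes tested in this class, this was the only one, and chance picks out about 1 in 20 such groups.

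The opposite-strand feature inside Smc1a was picked out as signal outside the counted genes of the list. It stood at 94.0 CPM in young oocytes, above the 61.3 CPM of Smc1a itself, and lower in old oocytes in all 3 runs of names.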

How the results depend on the processing

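No paired analysis was possible because the young and old oocytes share no replicate numbers. With age, 0 of 8 genes past 1.2-fold became 1 with the median over oocytes, without old names 9 to 16 and in oocytes with the suffix A (each time Smc1b), and 1 with no filter on low counts (Rad21l). In NSN oocytes 0 became 1 with thinning and with the median over oocytes. In SN oocytes 1 became 0 with thinning, with the mean or median over oocytes, at 1.5-fold and at the lowest with single oocytes left out, and 2 with no filter. For SN over NSN, 3 genes in young and 4 in old oocytes became 0 at 1.5-fold, and the 4 in old oocytes became 0 with the median over oocytes. By suffix, a split added after seeing the data except with age over all oocytes, the count with age in NSN oocytes became 1 with the suffix A (Smc1b) and 1 without (Stag3), that in SN oocytes 2 with it (Rad21 and Stag3), those for SN over NSN 0 with and 5 without it in young and 2 with it in old oocytes, and that of more variable genes 3 with and 2 without it. More variable genes went from 0 to 1 with all 88 oocytes, 2 with thinning, 4 at 1.2-fold, 5 without names 1 to 7, and 2 without names 9 to 16 or names 41 to 48. No share over all features is given for these counts or for those by suffix. Counts not divided by length gave Smc1b shares of 24.2% (young) and 26.8% (old), Stag3 shares of 4.52% and 4.64% and Rad21l shares of 4.02% and 5.43%. Per kb of the longest transcript, a choice added after seeing the data, the Smc1b shares were 27% and 29.8%. Medians over oocytes gave 33.1% for Smc1b in old oocytes and 6.89% and 7.53% for Rad21l in young and old oocytes. No log2 ratio of a single gene that was called with both suffix sets pooled changed sign under any of these alternatives. Ratios called only within a suffix set could turn. Smc1b for SN over NSN in old oocytes was -0.31 with and 0.35 without the suffix, and Stag3 in young oocytes -0.25 and 0.33. With all 88 oocytes the log2 ratio of Rad21l with age was 0.71, since the left-out oocyte 48A had 23.1 CPM. Over the alternatives, also added later, the opposite-strand feature inside Smc1a kept a ratio between -0.85 (without names 41 to 48) and -0.62 (without names 25 to 31), and by suffix it was -0.45 with and -1.04 without it. Stag3 and Rad21l rest on means of 13 to 16 and 8 counts per oocyte, which limits what single oocytes can show.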
